A study of Mus musculus with 12 samples.

Results

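Toll-like receptors (TLRs) other than TLR4 were followed in bone marrow-derived macrophages (BMDMs). The members were taken by gene symbol, as a family chosen with earlier results of these data known, and all 9 of them, Tlr1, Tlr2, Tlr3, Tlr5, Tlr6, Tlr7, Tlr8, Tlr9 and Tlr13, were among the 43131 genes of the deposited count table. The BMDMs came from C57BL/6 mice with floxed tlr4 alleles (tlr4f/f) or from mice that also carried Cre under the lysM locus (tlr4f/f-lysM-cre). LysM is the lysozyme gene Lyz2, so Cre is made in myeloid cells, neutrophils as well as macrophages, and both genotypes carry the floxed alleles. M-CSF, a growth factor of macrophages, was given at 50 ng/mL over 7 days of culture, after which BMDMs were left untreated (LPS-) or received lipopolysaccharide, the ligand of TLR4, at 1 µg/mL for 6 h (LPS+). Each of the 4 groups had 3 RNA libraries, 12 in all. No label says that the 3 libraries of a group came from separate mice, so p-values measure only the spread between these libraries.

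TLRs are membrane receptors of innate immune cells that bind molecules of microbes. TLR2 pairs with TLR1 or TLR6 at the cell surface to bind bacterial lipoproteins, and TLR5, also at the surface, binds flagellin. TLR3, TLR7, TLR8, TLR9 and TLR13 sit in endosomes, where they meet nucleic acids, and need the chaperone UNC93B1 to get there. Most TLRs signal through the adaptor MyD88, and TLR3 signals through TRIF, which is encoded by Ticam1.

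Before the members, Tlr4, the gene deleted in this design, was checked against the column headings. Levels are given as CPM, the counts of a gene scaled to the size of its library, here with the factors of edgeR's TMM method. Tlr4 was at 76.7, 147 and 121 CPM in LPS- tlr4f/f and at 117, 95.1 and 116 CPM in LPS- tlr4f/f-lysM-cre. It was at 31.1, 27.8 and 24.3 CPM in LPS+ tlr4f/f and at 27.5, 24.6 and 24.8 CPM in LPS+ tlr4f/f-lysM-cre. Tlr4 was thus low in both groups headed LPS+ and not in both groups headed tlr4f/f-lysM-cre. Lyz2, the gene that carries Cre, was at 6567 to 23264 CPM in LPS- tlr4f/f, at 5950 to 9491 CPM in LPS- tlr4f/f-lysM-cre, at 10.4 to 14.3 CPM in LPS+ tlr4f/f and at 52.6 to 75.6 CPM in LPS+ tlr4f/f-lysM-cre. Il1b, a cytokine gene that LPS is known to induce in macrophages, was at 1640 to 8220 CPM in LPS- tlr4f/f-lysM-cre and at 2498 to 2687 CPM in LPS+ tlr4f/f-lysM-cre, against at most 6.93 CPM in the 6 libraries headed tlr4f/f. These genes go against the column heading LPS+ tlr4f/f and against that of LPS- tlr4f/f-lysM-cre, which may be exchanged. Groups are therefore named by their headings, and each comparison is given as headed and with these headings exchanged. The exchange changes what a comparison is about and none of its values.

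The libraries held between 33577087 and 56445268 counts over genes. Macrophage markers (8 genes) summed to 5617 to 6948 CPM in LPS- tlr4f/f, 8987 to 10462 CPM in LPS- tlr4f/f-lysM-cre, 4473 to 4717 CPM in LPS+ tlr4f/f and 6481 to 6635 CPM in LPS+ tlr4f/f-lysM-cre, and their part in the differences below was not tested. Markers of fibroblasts and stroma (6 genes) differed within the groups headed LPS-, with sums of 9.05 to 656 CPM in LPS- tlr4f/f and 137 to 1463 CPM in LPS- tlr4f/f-lysM-cre, and stayed between 20.2 and 44.0 CPM in the libraries headed LPS+. Markers of neutrophils (8 genes) summed to 14.95 to 192 CPM in LPS- tlr4f/f-lysM-cre and to at most 13.7 CPM elsewhere, with Ly6g, a defining neutrophil gene, at 0 there. Markers of conventional dendritic cells (5 genes) were low but differed without overlap between the headed genotypes, with sums of 0.273 to 0.564 CPM in LPS- tlr4f/f and 0.361 to 0.964 CPM in LPS+ tlr4f/f, against 3.16 to 6.32 CPM in LPS- tlr4f/f-lysM-cre and 2.90 to 3.18 CPM in LPS+ tlr4f/f-lysM-cre. Of them Xcr1, a chemokine receptor gene, was higher in the groups headed tlr4f/f-lysM-cre by edgeR, with a log2 fold change of 4.75 (adjusted p = 0.00651) without LPS and 3.62 (adjusted p = 4.98e-06) with LPS. Without LPS, Xcr1 was the only 1 of these markers with enough counts to be tested. With LPS, Zbtb46 (0.78) and Clec9a (-0.50) were also tested and did not pass. Cd209a was at 0 in LPS- tlr4f/f-lysM-cre. The part of these markers in the differences below was not tested. Markers of T lymphocytes (4 genes) summed to at most 0.188 CPM. In bulk RNA, fewer cells of a type and less RNA per cell cannot be told apart.

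The receptor repertoire had a different make-up in the groups headed tlr4f/f and those headed tlr4f/f-lysM-cre. To compare levels between genes, CPM was divided by the length of the transcript used (CPM per kb). The 9 members together reached 169 to 219 CPM per kb in LPS- tlr4f/f and 199.5 to 231 CPM per kb in LPS+ tlr4f/f. They reached 537 to 626 CPM per kb in LPS- tlr4f/f-lysM-cre and 584 to 633 CPM per kb in LPS+ tlr4f/f-lysM-cre. The 4 surface receptors made up 12.3% to 16.7% of this sum in LPS- tlr4f/f, 13.2% to 14.3% in LPS+ tlr4f/f, 44.3% to 58.4% in LPS- tlr4f/f-lysM-cre and 44.9% to 46.7% in LPS+ tlr4f/f-lysM-cre. The sum and the surface share were thus higher in every tlr4f/f-lysM-cre library, as headed, than in any of the 6 tlr4f/f libraries. With the headings exchanged, these are the LPS-treated and the unstimulated libraries. Tlr13 made up 29.8% to 53.2% of the sum in the libraries headed tlr4f/f and 6.33% to 11.3% in those headed tlr4f/f-lysM-cre. The share of Tlr2 went the other way, with 3.88% to 13.6% and 25.1% to 37.6%. Tlr3 took 9.28% to 9.44% in LPS- tlr4f/f-lysM-cre and at most 2.41% in any other library. These are shares of a sum that itself differed, so a share can fall by more than the level. Mean Tlr13 was 325 CPM in LPS- tlr4f/f and 167 CPM in LPS- tlr4f/f-lysM-cre. It was 285 CPM in LPS+ tlr4f/f and 253 CPM in LPS+ tlr4f/f-lysM-cre.

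**Figure D1:**
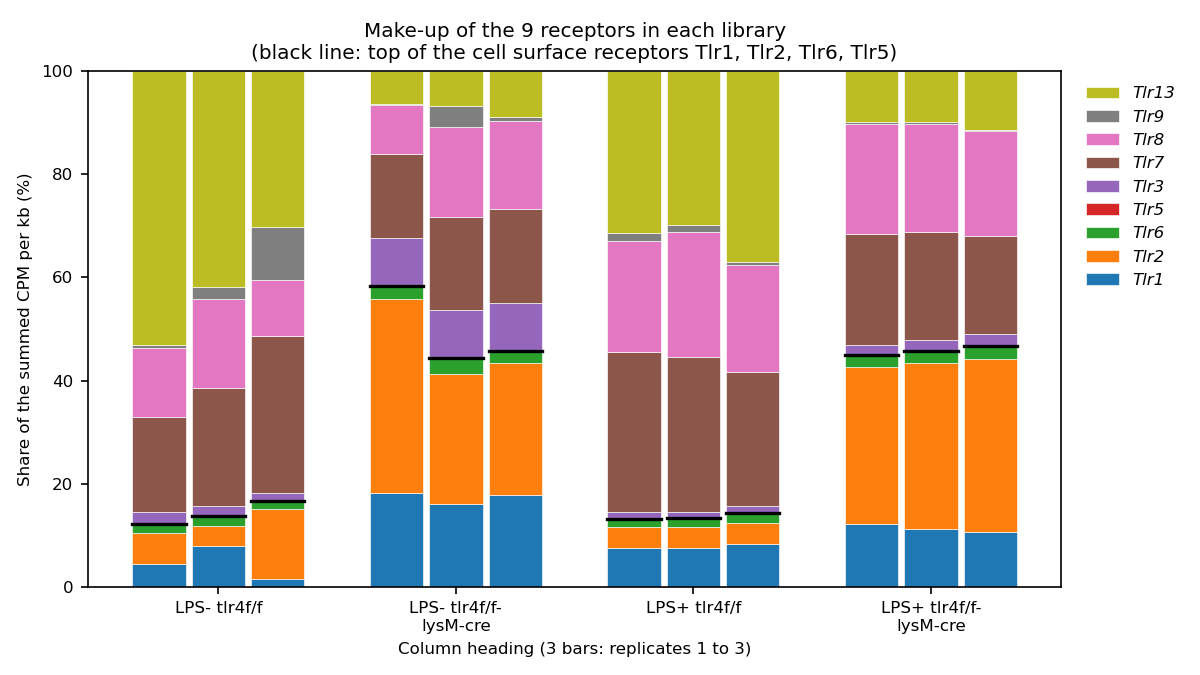
Share of each receptor in the summed CPM per kb of the 9 receptors, 1 bar per library, by column heading, with a black line at the top of the surface receptors (Tlr1, Tlr2, Tlr6 and Tlr5, the last too rare to be seen). The line lies between 12.3% and 16.7% in the libraries headed tlr4f/f and between 44.3% and 58.4% in those headed tlr4f/f-lysM-cre.

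In LPS- tlr4f/f, Tlr13 was the most abundant member per length, at 81.1 ± 13.1 CPM per kb (SD, n = 3), followed by Tlr7 at 48.6 ± 17.8 and Tlr8 at 27.5 ± 7.35 CPM per kb. Each neighbour in this order overlapped the next in its 3 libraries, down to Tlr6 at 3.45 ± 0.708 CPM per kb, and Tlr5 alone stood apart at the bottom. In LPS+ tlr4f/f the first places were the same, with Tlr13 at 71.1 ± 2.55, Tlr7 at 63.9 ± 10.3 and Tlr8 at 48.7 ± 7.01 CPM per kb, 3 members that overlapped in turn and lay above Tlr1 at 16.9 ± 0.447 CPM per kb. Tlr9 and Tlr3 did not differ beyond their spread there, at 2.68 ± 1.33 and 2.60 ± 0.198 CPM per kb. In LPS- tlr4f/f-lysM-cre, Tlr2 led with 167 ± 31.7 CPM per kb, without overlap with the next member, Tlr7 at 99.8 ± 12.3 CPM per kb. Tlr7, Tlr1, Tlr8 and Tlr3 overlapped in turn, and Tlr13 came below them at 41.7 ± 7.52 CPM per kb. Tlr2 also led in LPS+ tlr4f/f-lysM-cre, at 197 ± 7.01 CPM per kb, above Tlr8 at 128 ± 7.65 and Tlr7 at 126 ± 13.3 CPM per kb, which did not differ beyond their spread. Within a library, the ratio of Tlr2 to Tlr13 per length was 0.0929 to 0.450 in the 6 libraries headed tlr4f/f and 2.87 to 5.94 in the 6 headed tlr4f/f-lysM-cre.

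**Figure D2:**
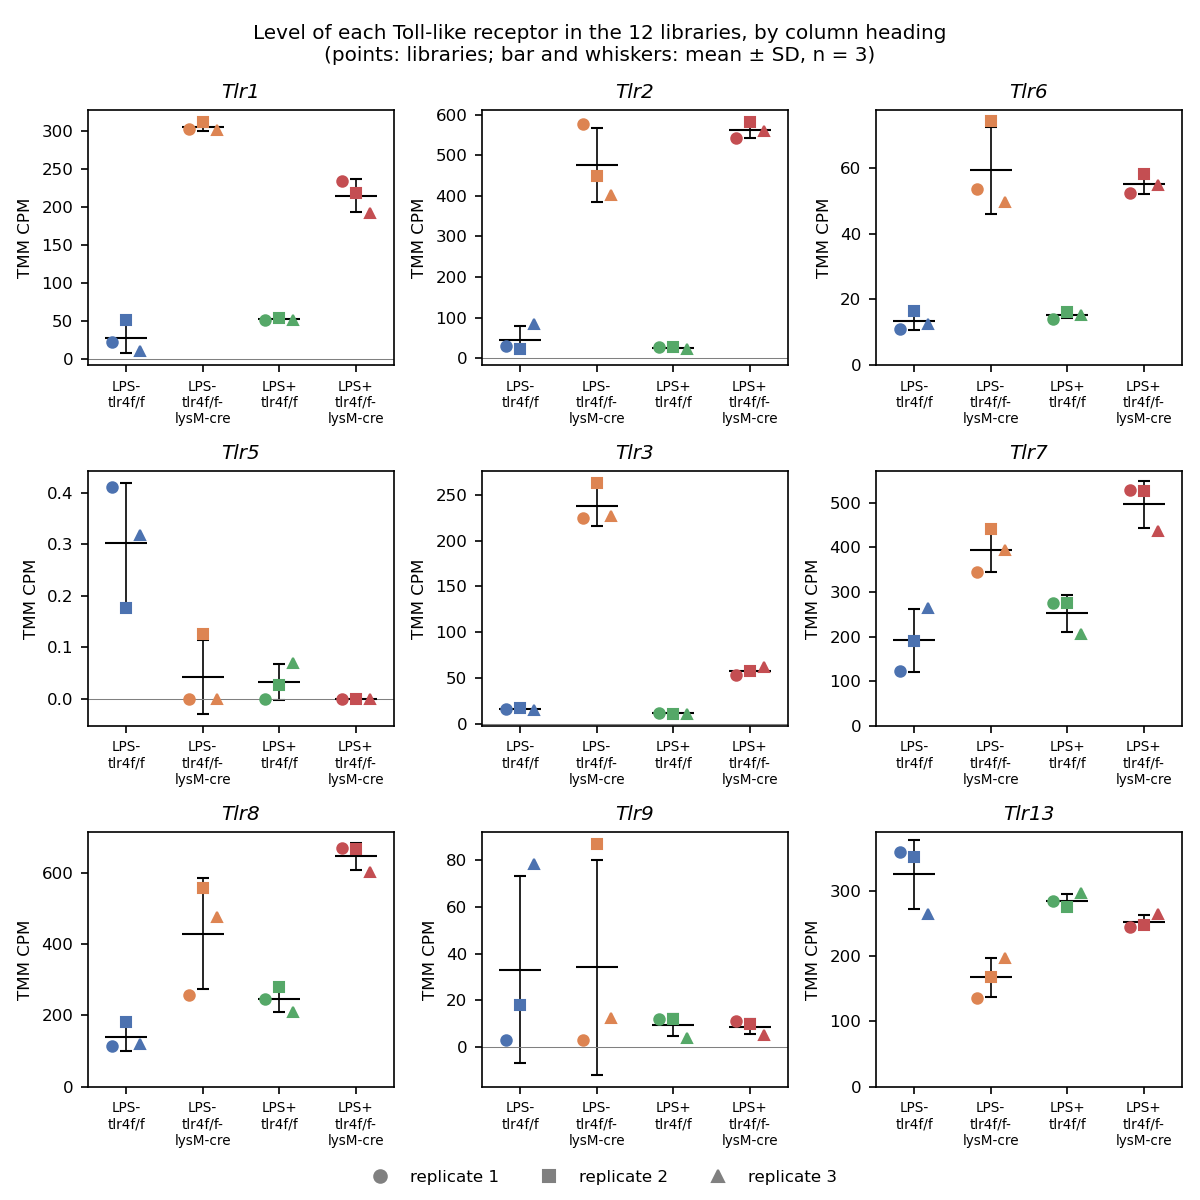
TMM CPM of each receptor in the 12 libraries, by column heading, each panel with its own axis; points are libraries, and the bar with whiskers is the mean ± SD (n = 3). Tlr1, Tlr2, Tlr3 and Tlr6 were high in both groups headed tlr4f/f-lysM-cre, Tlr13 was lowest in LPS- tlr4f/f-lysM-cre, and Tlr9 ranged from 2.76 to 87.1 CPM within the groups headed LPS-.

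Members were compared between groups with edgeR's quasi-likelihood test over all genes that passed its filter on low counts, and a gene was called when its fold change was above 2 and its Benjamini-Hochberg adjusted p below 0.01. Of the members, 8 passed the filter and Tlr5 did not. The comparison of LPS- tlr4f/f-lysM-cre with LPS- tlr4f/f is that of the genotypes without LPS as headed, and that of LPS with no stimulation in tlr4f/f with the headings exchanged. In it, 4 of 8 members, Tlr1, Tlr2, Tlr3 and Tlr6, were called higher and none lower by edgeR, where 9.25% of 14635 genes were called higher and 7.81% lower. A further 3 members, Tlr7, Tlr8 and Tlr13, had an adjusted p below 0.05, which 37.3% of all genes had. Libraries of the 2 groups did not overlap for 6 members that were higher and 1 that was lower, as was so for 25.1% and 29.1% of all genes. The median log2 fold change (log2FC) was 1.88 over the 8 members and -0.08 over all genes tested. Scaled by library totals alone, 857 genes were called higher and 3349 lower, against 1354 and 1143 with TMM, and 5 members were called. When 1 library was left out, 2 members were called without replicate 1 of LPS- tlr4f/f or replicate 2 or 3 of LPS- tlr4f/f-lysM-cre, and 3 or 4 without any other, with Tlr3 and Tlr6 among them each time.

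The comparison of LPS+ tlr4f/f-lysM-cre with LPS+ tlr4f/f is that of the genotypes under LPS as headed, and that of LPS with no stimulation in tlr4f/f-lysM-cre with the headings exchanged. Tlr1, Tlr2, Tlr3, Tlr6 and Tlr8, 5 of 8 members, were called higher and none lower, where 10.8% of 14540 genes were called higher and 10.9% lower. At an adjusted p below 0.05 there were 7 members, Tlr9 being the exception, and 61.4% of all genes. Without overlap 6 members were higher and 1 lower, and so were 33.5% and 33.8% of all genes. The median log2FC was 1.63 over the members and -0.02 over all genes, and scaling by library totals gave 1251 genes higher and 2436 lower in place of 1572 and 1589. These 6 libraries differ from those of the preceding comparison, so the calls of Tlr1, Tlr2, Tlr3 and Tlr6 were made in both on separate libraries. No label says whether the libraries of both comparisons came from separate mice.

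LPS was compared with no stimulation as headed, or the genotypes with the headings exchanged, in the other pairs of groups. Between LPS+ tlr4f/f and LPS- tlr4f/f, edgeR called 0 of 8 members, where 0% of 14701 genes were called. At an unadjusted p below 0.05 there were 2 members, Tlr3 and Tlr8, and 3624 genes, or 24.7%, and DESeq2 called 0 members and 464 genes. An adjusted p below 0.05 was reached by 1.27% of all genes. Tlr1 and Tlr8 were higher and Tlr3 lower without overlap of libraries, as were 16.6% and 18.8% of all genes. Between the groups headed tlr4f/f-lysM-cre, 1 of 8 members, Tlr3, was called lower, where 3.65% of 14234 genes were called lower and 2.42% higher. Tlr1 and Tlr13 also had an adjusted p below 0.05, which 26.7% of all genes had. Without overlap 2 members, Tlr8 and Tlr13, were higher and 2, Tlr1 and Tlr3, lower, against 25.5% and 22.5% of all genes. Scaled by library totals, 1064 genes were called higher and 342 lower in place of 345 and 520, and Tlr3 kept its call.

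**Figure D3:**
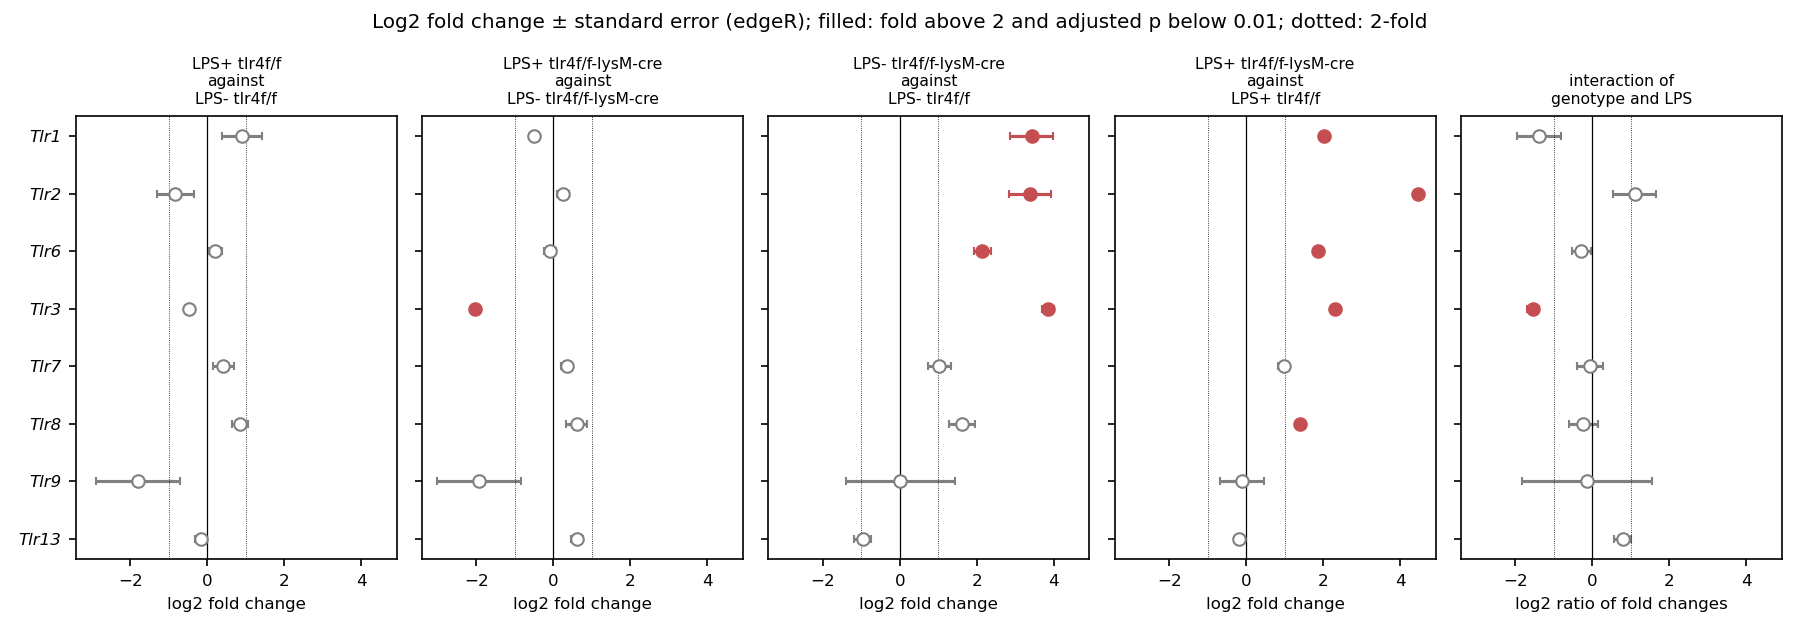
Log2FC (x axis) of the 8 receptors tested in the 4 comparisons and, in the last panel, the log2 ratio of fold changes, with the SE as whiskers (hidden by the point where small). Filled points have a fold above 2 and an adjusted p below 0.01 by edgeR, and these are 0, 1, 4, 5 and 1 of 8 from left to right.

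Among the surface receptors, Tlr2 (chromosome 3, 83836272 to 83841767, minus strand, mm10) encodes the subunit shared by both lipoprotein receptors. It was at 29.2, 23.2 and 84.8 CPM in LPS- tlr4f/f and at 26.7, 26.5 and 22.7 CPM in LPS+ tlr4f/f. In LPS- tlr4f/f-lysM-cre it was at 577, 450 and 401 CPM, and in LPS+ tlr4f/f-lysM-cre at 542, 582 and 561 CPM. All 6 libraries headed tlr4f/f-lysM-cre lay far above the 6 headed tlr4f/f, and of the latter replicate 3 of LPS- tlr4f/f was the highest. The log2FC, here with its standard error (SE), was 4.47 (SE 0.0760, adjusted p = 7.76e-13 by edgeR) between the headed genotypes with LPS, a 22.2-fold difference and the largest of any member in the 4 comparisons. It was 3.37 (SE 0.546, adjusted p = 0.00509 by edgeR) between the headed genotypes without LPS. When 1 library was left out of the latter fit, edgeR's adjusted p lay between 0.0017 and 0.018, and the call was lost without any 1 of 5 of the 6 libraries, replicate 3 of LPS- tlr4f/f being the exception. Between LPS+ and LPS- libraries of the same headed genotype the log2FC was -0.83 for tlr4f/f, with an adjusted p of 0.341 by edgeR, and 0.25 for tlr4f/f-lysM-cre, with 0.285, and neither passed the test.

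Tlr1 (chromosome 5, 64924679 to 64933563, minus strand), whose product pairs with TLR2 for triacylated lipoproteins, was at 23.0, 51.0 and 10.7 CPM in LPS- tlr4f/f and at 51.8, 53.9 and 51.3 CPM in LPS+ tlr4f/f. It was at 302, 311 and 301 CPM in LPS- tlr4f/f-lysM-cre and at 234, 218 and 192 CPM in LPS+ tlr4f/f-lysM-cre. The groups headed tlr4f/f-lysM-cre were again without overlap above those headed tlr4f/f, and within the former each LPS- library lay above each LPS+ library. The log2FC was 3.42 (SE 0.566, adjusted p = 0.00547 by edgeR) between the headed genotypes without LPS and 2.03 (SE 0.0693, adjusted p = 1.14e-10 by edgeR) with LPS. Without LPS the call of Tlr1 was lost in 4 of the 6 fits that left out a library, where edgeR's adjusted p reached 0.021. The log2FC between LPS+ and LPS- tlr4f/f was 0.91, with an adjusted p of 0.328 by edgeR. Between the groups headed tlr4f/f-lysM-cre, Tlr1 had a log2FC with LPS of -0.50, with an adjusted p of 0.0199 by edgeR, and was not called. The ratio of Tlr2 to Tlr1 per length was 0.478 to 0.558 in LPS+ tlr4f/f and 2.51 to 3.16 in LPS+ tlr4f/f-lysM-cre, and it spread from 0.493 to 8.55 over the 3 libraries of LPS- tlr4f/f.

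Tlr6 (chromosome 5, 64952031 to 64960097, minus strand), the other partner of TLR2, for diacylated lipoproteins, lies 18467 bases from Tlr1. It was at 10.96, 16.3 and 12.6 CPM in LPS- tlr4f/f and at 14.1, 16.0 and 15.3 CPM in LPS+ tlr4f/f. In LPS- tlr4f/f-lysM-cre it was at 53.7, 74.3 and 49.7 CPM, and in LPS+ tlr4f/f-lysM-cre at 52.3, 58.2 and 54.7 CPM. The 2 low and the 2 high groups did not overlap, and within each pair the libraries overlapped. The log2FC was 2.14 (SE 0.225, adjusted p = 0.00122 by edgeR) without LPS in the heading and 1.86 (SE 0.0709, adjusted p = 3e-10 by edgeR) with it. From LPS- to LPS+ it was 0.21 for tlr4f/f, with an adjusted p of 0.467 by edgeR, and -0.09 for tlr4f/f-lysM-cre, with 0.688. Tlr1 and Tlr6 share sequence: 18.6% of the 30-base windows of Tlr1 transcripts, and 4.3% of its 150-base windows, also occur in Tlr6, so part of their reads could have been counted for either gene. No other pair of members shared a window of 30 bases. Tlr1 was 1.06 to 7.55 times Tlr6 per length over the 12 libraries.

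Tlr5 (chromosome 1, 182954788 to 182976044, plus strand), the flagellin receptor, was close to absent. It had 24, 11 and 17 counts in LPS- tlr4f/f, 0, 4 and 0 in LPS- tlr4f/f-lysM-cre, 0, 1 and 4 in LPS+ tlr4f/f and 0 in each library of LPS+ tlr4f/f-lysM-cre. Only the libraries of LPS- tlr4f/f had more than 4 counts, and they did not overlap with the others. Without a filter beyond 1 count, edgeR's adjusted p for Tlr5 was 0.165 between the headed genotypes without LPS and 0.169 between LPS+ tlr4f/f and LPS- tlr4f/f. A count of 0 allows up to 3 counts, counting error alone considered, and a difference between the low groups was not detectable at this depth.

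For the 4 receptors called between both pairs of headed genotypes, the bases upstream of the RefSeq transcription start (GRCm38.p6) are shown, because these genes were called in both of these comparisons. RefSeq's promoter table held 10 windows of 250 bases upstream for 8 of the 9 members. Printed is the longest stretch of each window that no exon of the same gene in the GENCODE annotation covers, 5′ to 3′ on the gene's strand. Capitals mark matches, on either strand, to the letters of an NF-κB site, GGGA and CC with any 4 bases between them, or to those of an interferon-stimulated response element (ISRE), GAAA and GAAA with any 2 bases between them. The stretches are chr3:83841768-83841858 (Tlr2), chr5:64933564-64933808 (Tlr1), chr5:64959167-64959416 (Tlr6) and chr8:45410381-45410452 (Tlr3), all on the minus strand. Those of Tlr2 and Tlr1 lie directly upstream of the gene as GENCODE gives it. Those of Tlr6 and Tlr3 lie within the gene, in an intron of GENCODE transcripts that start further upstream, that of Tlr6 before 1 of 2 starts that RefSeq gives. RefSeq gives 2 starts for Tlr1 as well, and only the window of 1 of them is shown.
Tlr2: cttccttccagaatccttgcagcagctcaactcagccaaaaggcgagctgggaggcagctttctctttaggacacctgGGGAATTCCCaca
Tlr1: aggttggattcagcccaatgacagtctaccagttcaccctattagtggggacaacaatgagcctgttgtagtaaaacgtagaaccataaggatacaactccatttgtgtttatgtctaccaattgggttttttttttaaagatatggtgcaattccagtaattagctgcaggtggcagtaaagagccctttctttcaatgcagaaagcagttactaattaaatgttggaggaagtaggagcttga
Tlr6: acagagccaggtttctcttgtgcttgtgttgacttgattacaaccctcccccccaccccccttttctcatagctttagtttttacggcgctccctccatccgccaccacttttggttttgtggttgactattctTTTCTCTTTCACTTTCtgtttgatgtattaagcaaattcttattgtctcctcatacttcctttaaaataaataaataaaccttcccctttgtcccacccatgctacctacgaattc
Tlr3: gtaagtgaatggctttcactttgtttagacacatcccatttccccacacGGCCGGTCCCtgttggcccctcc

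The NF-κB letters occurred in the windows of 3 of 8 members, Tlr2, Tlr3 and Tlr5, and in 17.6% of all 32851 RefSeq promoter windows of this length. Here and below, a member was counted when any of its windows matched, and Tlr1 and Tlr6 have 2 each. The percentages are of single windows, so these values are not on equal terms. In Tlr2 the match began at base -172 from the start, while Tlr3 had 2 matches, of which 1 lies in the intronic stretch shown. The ISRE letters occurred in 1 of 8 members, Tlr6, as 2 overlapping matches, and in 2.98% of all windows. A looser NF-κB pattern, GGG and CC with any 5 bases between them, which includes the first, was found in 4 of 8 members and 45.8% of windows. The letters TTCNNNGAA of a STAT site were found in 2 of 8 members and 7.02% of windows, the letters GAGGAAGT of a PU-box in 1 and 2.44%, and the letters TGANTCA of an AP-1 site in 1 and 6.75%. For Tlr1, the match to the STAT letters lies in the window that is not shown. Such a match is a description of the letters and not of a bound site, and Tlr5, with a match, was the rarest member.

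Of the endosomal receptors, Tlr3 (chromosome 8, 45395665 to 45411080, minus strand), which binds RNA duplexes such as those made by viruses, differed in each of the comparisons that called any member. It was at 16.7, 17.1 and 15.2 CPM in LPS- tlr4f/f and at 12.6, 10.9 and 11.3 CPM in LPS+ tlr4f/f. In LPS- tlr4f/f-lysM-cre it was at 224, 263 and 226 CPM, and in LPS+ tlr4f/f-lysM-cre at 53.5, 57.8 and 62.6 CPM. The 4 groups did not overlap, and LPS- tlr4f/f-lysM-cre stood highest in all its libraries. The log2FC between the headed genotypes was 3.85 (SE 0.151, adjusted p = 0.000359 by edgeR) without LPS and 2.32 (SE 0.0818, adjusted p = 1.55e-10 by edgeR) with LPS, which is 14.5-fold and 4.98-fold. Between LPS+ and LPS- it was -2.03 (SE 0.115, adjusted p = 0.000734 by edgeR) for tlr4f/f-lysM-cre, or 4.08-fold lower, and -0.47 (SE 0.111, adjusted p = 0.0789 by edgeR) for tlr4f/f. Without any 1 of the LPS+ tlr4f/f-lysM-cre libraries, edgeR's adjusted p of the former was 0.0107 to 0.0142, above the threshold, with between 4 and 15 genes called in all. Exons of Tlr3 share 381 of 5207 bases with Gm45542 on the other strand, whose reads cannot be told apart from those of Tlr3 unless the counting used strand, which is not stated.

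The effect of LPS on Tlr3 differed between the genotypes. In a fit of all 12 libraries the interaction of genotype and LPS was -1.54 on the log2 scale (SE 0.147, adjusted p = 0.00135 by edgeR), and Tlr3 was the 1 of 8 members called, where 0.38% of 15775 genes were called lower and 0.659% higher. Scaled by library totals, 43 genes were lower and 547 higher, and by DESeq2's size factors (RLE) 80 and 64, in place of 60 and 104, and Tlr3 kept its call in both. The value is the same under both readings. As headed, Tlr3 had a log2FC with LPS of -2.03 for tlr4f/f-lysM-cre and of -0.47, which did not pass the test, for tlr4f/f. With the headings exchanged, Tlr3 was higher with LPS, by a log2FC of 3.85 for tlr4f/f and 2.32 for tlr4f/f-lysM-cre. The interaction of Tlr3 was called in all 12 fits that left out 1 library, with edgeR's adjusted p of 0.00116 to 0.00804. For Tlr1 the interaction was -1.39 (SE 0.568, adjusted p = 0.168) and for Tlr2 1.09 (SE 0.551, adjusted p = 0.263) by edgeR, and neither passed the test. Without replicate 2 of LPS- tlr4f/f, the library of that group with the most Tlr1, Tlr1 had an interaction of -2.14 and an adjusted p of 0.00861 by edgeR. The interaction of Tlr13 was 0.78 (SE 0.213, adjusted p = 0.0517 by edgeR), and those of Tlr6, Tlr7, Tlr8 and Tlr9 lay between -0.29 and -0.06 with adjusted p of 0.514 to 0.973 by edgeR.

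Tlr7, which encodes a receptor of single-stranded RNA, and Tlr8 lie 40599 bases apart on chromosome X (167304929 to 167330558 and 167242696 to 167264329, both minus strand). Tlr7 was at 122, 190 and 263 CPM in LPS- tlr4f/f and at 276, 275 and 205 CPM in LPS+ tlr4f/f. It was at 345, 442 and 393 CPM in LPS- tlr4f/f-lysM-cre and at 528, 526 and 436 CPM in LPS+ tlr4f/f-lysM-cre. The groups headed tlr4f/f overlapped with each other and lay below those headed tlr4f/f-lysM-cre in every library. The log2FC of 0.97 between the headed genotypes with LPS had an adjusted p of 0.000612 by edgeR, but the fold of 1.96 fell short of 2. It was 1.03 without LPS, with an adjusted p of 0.0316 by edgeR. From LPS- to LPS+ it was 0.42 for tlr4f/f, with an adjusted p of 0.398 by edgeR, and 0.34 for tlr4f/f-lysM-cre, with 0.107.

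Tlr8 was at 114, 181 and 120 CPM in LPS- tlr4f/f and at 246, 281 and 210 CPM in LPS+ tlr4f/f. In LPS- tlr4f/f-lysM-cre it was at 257, 557 and 475 CPM, and in LPS+ tlr4f/f-lysM-cre at 670, 668 and 602 CPM. It was the member whose LPS+ libraries lay above the LPS- libraries in both headed genotypes without overlap, yet neither difference passed the test, with a log2FC of 0.85 for tlr4f/f (adjusted p = 0.0863 by edgeR) and 0.60 for tlr4f/f-lysM-cre (adjusted p = 0.142 by edgeR). Between the headed genotypes the log2FC was 1.39 (SE 0.0990, adjusted p = 1.75e-06 by edgeR) with LPS and 1.62 (SE 0.336, adjusted p = 0.0113 by edgeR) without, the latter just above the threshold of 0.01. Per length, Tlr8 was 0.357 to 0.748 times Tlr7 in LPS- tlr4f/f, while it was 0.991 to 1.08 times Tlr7 in LPS+ tlr4f/f-lysM-cre.

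Tlr9 (chromosome 9, 106222598 to 106226883, plus strand), the receptor of unmethylated CpG DNA, was not called in any comparison and varied most within groups. It was at 2.91, 17.8 and 78.5 CPM in LPS- tlr4f/f and at 2.76, 87.1 and 12.3 CPM in LPS- tlr4f/f-lysM-cre. In LPS+ tlr4f/f it was at 11.8, 12.1 and 3.96 CPM, and in LPS+ tlr4f/f-lysM-cre at 11.3, 9.85 and 4.87 CPM. The groups overlapped, and a single library in each group headed LPS- stood far above the others. Between the highest and the lowest library of a group it differed 27.0-fold in LPS- tlr4f/f, 31.5-fold in LPS- tlr4f/f-lysM-cre, 3.05-fold in LPS+ tlr4f/f and 2.32-fold in LPS+ tlr4f/f-lysM-cre. The log2FC between the headed genotypes was 0.02 (SE 1.42, adjusted p = 0.994 by edgeR) without LPS and -0.10 (SE 0.571, adjusted p = 0.899 by edgeR) with LPS, where the SE leaves changes in either direction possible. Its log2FC from LPS- to LPS+ was -1.80 (SE 1.09) for tlr4f/f and -1.94 (SE 1.10) for tlr4f/f-lysM-cre, with adjusted p of 0.357 and 0.233 by edgeR.

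Markers of fibroblasts and stroma varied in the libraries in which Tlr9 varied. Their summed level was 656, 60.6 and 9.05 CPM in the 3 replicates of LPS- tlr4f/f and 922, 137 and 1463 CPM in those of LPS- tlr4f/f-lysM-cre. In each of these groups, the library with the most Tlr9 had the least of these markers. This order did not hold throughout. In LPS- tlr4f/f-lysM-cre, replicate 3, with the most of the markers, had more Tlr9 (12.3 CPM) than replicate 1 (2.76 CPM). Libraries headed LPS+ had only 20.2 to 44.0 CPM of the markers, with Tlr9 at 3.96 to 12.1 CPM. The part of these markers in the result was not tested. TLR9 is well known from B lymphocytes and plasmacytoid dendritic cells. B lymphocyte markers (6 genes) summed to at most 2.09 CPM, and those of plasmacytoid dendritic cells (5 genes) to 0.674 to 0.855 CPM in LPS- tlr4f/f, with Siglech at 0, to 2.58 to 9.34 CPM in LPS- tlr4f/f-lysM-cre, to 4.63 to 6.28 CPM in LPS+ tlr4f/f and to 4.95 to 5.76 CPM in LPS+ tlr4f/f-lysM-cre. The latter sums join genes that went in opposite directions. Between the headed genotypes with LPS, Ccr9 was called higher (log2FC 4.53) and Pacsin1 lower (-5.76) by edgeR. Klk1 was at 0 in both groups headed tlr4f/f-lysM-cre.

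**Figure D4:**
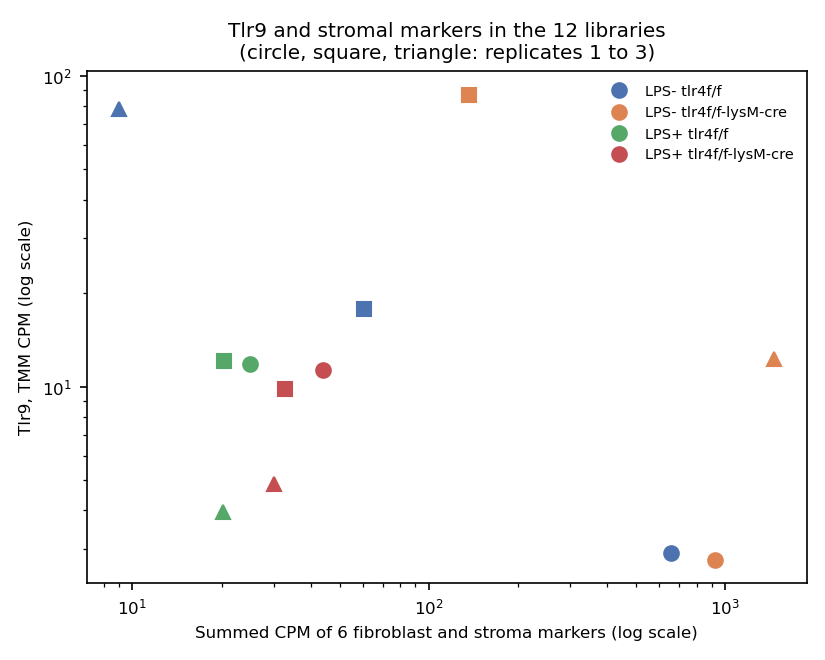
Tlr9 (y axis, TMM CPM) against the summed CPM of 6 markers of fibroblasts and stroma (x axis) in the 12 libraries, both on log scales, with colours for the headed groups and shapes for the replicates. Libraries headed LPS- spread over 9.05 to 1463 CPM of the markers and 2.76 to 87.1 CPM of Tlr9, while those headed LPS+ lay close together.

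Tlr13 (chromosome X, 106143204 to 106160493, plus strand), the receptor of a sequence in bacterial ribosomal RNA, was the member with the smallest range. It was at 360, 351 and 265 CPM in LPS- tlr4f/f and at 284, 276 and 296 CPM in LPS+ tlr4f/f. In LPS- tlr4f/f-lysM-cre it was at 137, 169 and 197 CPM, and in LPS+ tlr4f/f-lysM-cre at 245, 248 and 265 CPM. Only LPS- tlr4f/f-lysM-cre lay below all other groups without overlap. The highest group mean was 1.94 times the lowest. Between the headed genotypes the log2FC was -0.97 (SE 0.213, adjusted p = 0.0138 by edgeR) without LPS and -0.18 (SE 0.0548, adjusted p = 0.0123 by edgeR) with LPS, both below 0.05 and neither called. Between LPS+ and LPS- tlr4f/f-lysM-cre it was 0.60 (SE 0.155, adjusted p = 0.0311 by edgeR), and in tlr4f/f -0.17 with an adjusted p of 0.516. Tlr13 was thus the member with an adjusted p below 0.05 whose sign was opposite to that of the others between the headed genotypes. Xist was at most 0.782 CPM and Y-linked genes were present in all 12 libraries, so the X-linked members Tlr7, Tlr8 and Tlr13 were compared between libraries of the same sex.

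Genes that work with the receptors were taken from 4 lists. With the headings exchanged, the comparisons of headed genotypes below are those of LPS with no stimulation. Those of LPS+ with LPS- are then those of the genotypes. Between the headed genotypes without LPS, 5 of 12 genes of the list of TIR adaptors and the Myddosome, the complex of MyD88 with IRAK kinases, were called higher and none lower, where 9.25% of all genes were called higher and 7.81% lower. The largest change was that of Irak3 (3.80, SE 0.252, adjusted p = 0.000478 by edgeR), a kinase-like inhibitor of this complex, and Irak2, Myd88, Ticam2 and Pik3ap1 were the other ones. Irak3 was at 28.4 ± 3.99 and 397 ± 86.4 CPM (SD, n = 3) in these groups. Of the trafficking and processing genes, 5 of 17 were called higher, with Slc15a3, an endolysosomal transporter, as the largest (3.03, SE 0.578, adjusted p = 0.00866 by edgeR), followed by Syk, Rnaset2b, Rnaset2a and Lrrc59. Unc93b1, the chaperone of the endosomal receptors, was at 536 ± 64.0 CPM in LPS- tlr4f/f and 765 ± 141 CPM in LPS- tlr4f/f-lysM-cre and was not called. Among 12 negative regulators, 6 were called higher, led by Socs1, a suppressor of cytokine signalling (5.95, SE 0.466, adjusted p = 0.000654 by edgeR), and 2, Sigirr and Il1rl1, lower. Both were low in counts. Sigirr had 2, 3 and 0 counts in LPS- tlr4f/f-lysM-cre and 65, 54 and 57 in LPS- tlr4f/f. Il1rl1 had 9, 4 and 3 counts in LPS- tlr4f/f-lysM-cre and 146, 58 and 72 in LPS- tlr4f/f. None of 9 surface co-receptors and relatives was called. The median log2FC was 0.92 for the adaptors, 0.61 for trafficking, 1.53 for negative regulators and 0.79 for co-receptors, beside -0.08 over all genes.

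Between the headed genotypes with LPS, 6 of 12 adaptor genes were called higher, where 10.8% of all genes were called higher and 10.9% lower. Irak3 was again the largest (3.85, SE 0.0693, adjusted p = 8.58e-13 by edgeR). Of the trafficking genes 4 of 17 were called higher, and Syk, a tyrosine kinase, changed most (2.43, SE 0.0549, adjusted p = 4.24e-12 by edgeR), followed by Slc15a3, Rnaset2a and Lrrc59. Cd14, the co-receptor that hands lipopolysaccharide and lipoproteins to TLRs, and Ly96, the partner of TLR4, were 2 of 8 co-receptors called higher, with 1.97 for Cd14 (SE 0.0624, adjusted p = 6.17e-11 by edgeR). Negative regulators were called higher in 6 of 12 cases, led by Socs1 (5.54, SE 0.198, adjusted p = 7e-08 by edgeR), and lower in 2, again Il1rl1 and Sigirr. Sigirr had only 14, 10 and 2 counts in LPS+ tlr4f/f-lysM-cre and 32, 43 and 46 in LPS+ tlr4f/f. Here the medians were 1.02, 0.21, 1.14 and -0.05 in the same order, beside -0.02 over all genes. Between LPS+ and LPS- tlr4f/f-lysM-cre, where 3.65% of all genes were called lower and 2.42% higher, 2 of 17 trafficking genes were called lower, Rnaset2b (-1.76, SE 0.245, adjusted p = 0.0049 by edgeR) and Rnaset2a, near-identical copies that can share reads and that encode an RNase which makes ligands for the endosomal RNA receptors. In the same comparison, 3 of 11 negative regulators tested were called lower, Tnfaip3, Usp18 and Rnf19b, and 1 higher, Il1rl1, the receptor of IL-33 (2.88, SE 0.476, adjusted p = 0.00811 by edgeR), which had only 3 to 9 counts per library in LPS- tlr4f/f-lysM-cre. None of 9 co-receptors and 11 adaptor genes tested there was called. Between LPS+ and LPS- tlr4f/f no gene was called, so no list gene was.

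**Figure D5:**
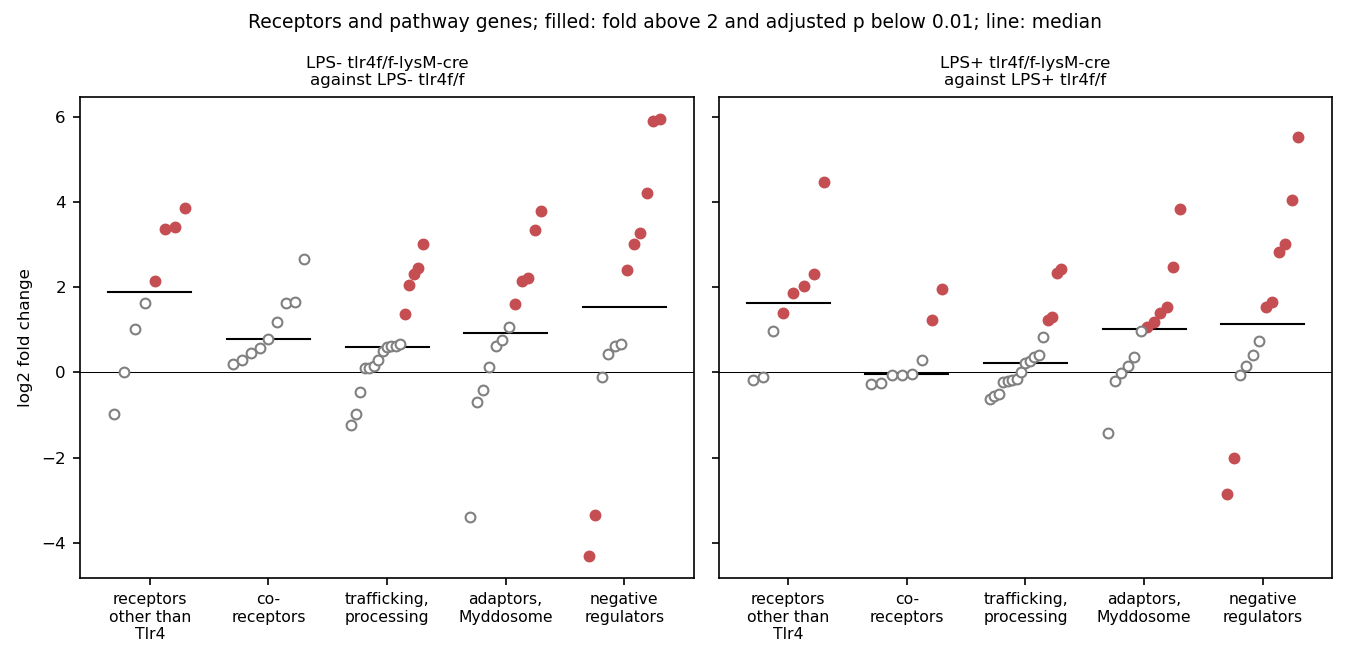
Log2FC (y axis) of the 8 receptors tested and of 4 lists of pathway genes between the headed genotypes without LPS (left) and with LPS (right), a point per gene in rising order, with the median as a line. Filled points have a fold above 2 and an adjusted p below 0.01 by edgeR; the medians of the receptors are 1.88 and 1.63, and those of the co-receptors 0.79 and -0.05.

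The 2 genes most like each member were sought by the root mean square difference of log2 CPM, centred per gene, over the 12 libraries. For Tlr3 these were Zfp36 (0.226) and Dusp16 (0.246), where Tlr3 itself had an SD of 1.72 on this scale. For Tlr2 they were Rtn2 (0.376) and Tagap (0.463), for Tlr1 Sh3d21 (0.342) and Cdkn1a (0.345), and for Tlr6 Agtrap (0.174) and Slc31a1 (0.180). Vhl (0.201) and Nfe2l2 (0.225) were closest to Tlr7, Mtm1 (0.221) and Homer1 (0.268) to Tlr8, and Rinl (0.116) and Sergef (0.140) to Tlr13. The closest genes of Tlr9, Abhd6 and 5031414D18Rik, differed by 0.680 and 0.799, the largest such values of any member. The SD on this scale was 1.54 for Tlr9, 2.08 for Tlr2, 0.618 for Tlr7 and 0.392 for Tlr13. The differences were not scaled to it and do not compare members on equal terms. The closest gene of each member was no other member.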

How the data were processed

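RNA of 12 BMDM libraries was sequenced as paired reads of 150 bases. The labels name both removal of ribosomal RNA and polyA RNA sequencing. The authors trimmed reads with Trimmomatic 0.36, used HISAT2 for alignment to the mm10 genome and HTSeq for counting. The deposited values are whole-number counts of 115140 transcripts, without normalization. Strand setting and treatment of shared reads are not given in the sources used here. Transcripts of a gene share reads (the lowest transcript of a member held 83.5% or more of the highest), so the transcript with the highest total was taken for each of 43131 genes. Of 7596 Ensembl gene IDs, 7551 were given symbols.

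Counts over genes were 33577087 to 56445268 per library (median 45330681). Reads without molecular identifiers may copy 1 molecule, and the limit a count of 0 allows covers counting error alone. edgeR 4.0.16 (in R 4.3.3) was fitted to the 6 libraries of each comparison, and to all 12 for the interaction, with filterByExpr, TMM factors, a robust quasi-likelihood test and Benjamini-Hochberg adjustment. The thresholds, a fold of 2 and an adjusted p of 0.01, and no covariate follow the study, which used DESeq. Levels used TMM factors over the 15775 genes kept in 12 libraries, and the most alike genes were sought among these with a prior count of 2. Alternatives were DESeq2 1.42.0, RLE factors, other filters and thresholds, the sum over transcripts, a replicate block, single fits, libraries left out in turn and the exchanged headings. Scaling by library totals alone was chosen after seeing the data. Named genes are the members, Tlr4, Lyz2, Il1b, the sex-linked genes, the called gene with the largest change of each list in each comparison, and the 2 genes most like each member. Other list genes are named where a count of 5 or fewer was given, and Unc93b1 for its role, chosen after its values were seen. The members and lists were chosen with earlier results of these data known. Tasl, of the trafficking list, was not used here. Counts were simulated with a log2 change of 2 put into 200 genes. The criteria recovered 74% in the fit of LPS+ against LPS- tlr4f/f, as headed, and 80% in that of tlr4f/f-lysM-cre. They recovered 42% between the headed genotypes without LPS, 97.5% with LPS and 56.5% for the interaction. These simulated counts had the spread of the fitted model, and only well-counted genes were changed, so the shares do not give the power for the members. In the real fit of LPS+ against LPS- tlr4f/f no gene was called, with Lyz2 at a log2FC of -10.1 (adjusted p = 0.0224 by edgeR). Sequences are from RefSeq (GRCm38.p6), positions from GENCODE M21.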

Additional observations from a re-analysis of the deposited data

Results flagged for a closer look

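The effect of LPS on Tlr3 differed between tlr4f/f and tlr4f/f-lysM-cre BMDMs by the interaction term over all 12 libraries. It was -1.54 on the log2 scale (standard error 0.147, adjusted p = 0.00135 by edgeR), and the same under both readings of the headings. Its range over the alternatives was -1.63 to -1.20. The cause was not tested.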

How the results depend on the processing

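Exchanging the headings moved the member calls of the comparisons by edgeR from 0 to 4 for LPS in tlr4f/f, from 1 to 5 for LPS in tlr4f/f-lysM-cre, from 4 to 0 for the genotypes without LPS and from 5 to 1 for the genotypes with LPS. The log2FC then reversed for Tlr2 (3.37), Tlr3 (3.85) and Tlr9 (0.0158) with LPS in tlr4f/f, and for Tlr1 (2.03), Tlr3 (2.32), Tlr6 (1.86) and Tlr13 (-0.18) with LPS in tlr4f/f-lysM-cre. Between the genotypes it reversed for Tlr2 (-0.83), Tlr3 (-0.47) and Tlr9 (-1.80) without LPS, and for Tlr1 (-0.50), Tlr3 (-2.03), Tlr6 (-0.0925) and Tlr13 (0.60) with LPS.

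Comparisons are named as headed from here on. Under the other alternatives, 578 of 640 values of the members kept their direction and their side of the thresholds. A further 14 lost and 21 gained a call, and 27 reversed, of results that had not passed the test. Scaling by library totals alone, chosen after seeing the data, moved the median log2FC of all genes from 0.03 to 0.37 for LPS in tlr4f/f-lysM-cre, from -0.08 to -0.71 for the genotypes without LPS, from -0.02 to -0.32 with LPS and from 0.07 to 0.40 for the interaction. It called Tlr13 lower between the genotypes without LPS (-1.59, adjusted p = 0.00219 by edgeR), and it reversed Tlr6 with LPS in tlr4f/f-lysM-cre (0.26), Tlr9 between the genotypes without LPS (-0.70) and the interactions of Tlr6 (0.0538), Tlr7 (0.29), Tlr8 (0.0917) and Tlr9 (0.29). Tlr6 with LPS still lay below the shifted median of all genes there. An adjusted p below 0.05 with any fold gave 3 members for LPS in tlr4f/f-lysM-cre and 7 for the genotypes without LPS. Between the latter, DESeq2 called 6 members, Tlr7 and Tlr8 in addition, and fitting without a filter beyond 1 count lost Tlr1 (adjusted p = 0.0119 by edgeR). Summing over transcripts, of which members have 1 to 9, kept only 1, 2, 1 and 4 of the 9 places in the order of levels in LPS- tlr4f/f, in LPS- tlr4f/f-lysM-cre, in LPS+ tlr4f/f and in LPS+ tlr4f/f-lysM-cre.

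Leaving out 1 library gave 0 to 1 member calls for LPS in tlr4f/f-lysM-cre, 2 to 4 for the genotypes without LPS and 1 to 2 for the interaction. Log2FC ranged from -0.22 to 0.0893 for Tlr6 and from -2.53 to 0.20 for Tlr9 with LPS in tlr4f/f-lysM-cre. For Tlr9 it ranged from -2.13 to 1.68 between the genotypes without LPS, from -0.48 to 0.20 with LPS and from -1.81 to 2.03 for the interaction, which for Tlr7 ranged from -0.35 to 0.18. The number of all genes called by edgeR ranged from 0 to 184 and from 4 to 1178 for LPS in tlr4f/f and tlr4f/f-lysM-cre, from 1038 to 1682 for the genotypes without LPS and from 10 to 306 for the interaction, against 0, 865, 2497 and 164 with all libraries. DESeq2 called 464, 2002, 3992 and 644 genes in these comparisons, library totals 1406, 4206 and 590 in the last 3, and a single fit of all 12 libraries 74 for LPS in tlr4f/f, 4251 for the genotypes without LPS and 2045, in place of 3161, with LPS. Without a filter beyond 1 count, 34 genes were called for LPS in tlr4f/f. Same-numbered libraries correlated by -0.038 to 0.472 in their deviations, and 4 of 12 values were over 0.1. The highest were those of LPS- tlr4f/f-lysM-cre with LPS- tlr4f/f, at 0.472 for replicate 1 and 0.340 for replicate 2, with 0.0143 for replicate 3. The main fits did not pair the samples by number, and for that comparison these values do not settle whether the numbers pair them. With the replicate block, edgeR called 212 genes in place of 865 for LPS in tlr4f/f-lysM-cre, Tlr2 was no longer called between the genotypes without LPS (adjusted p = 0.0108) while Tlr8 was, and Tlr9 reversed there (-0.14) and in the interaction (0.37). The causes were not tested. Tlr5, at 0 to 24 counts, was limited by depth, and Tlr9 by the spread of the libraries headed LPS-.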
